A study of Mus musculus with 5 samples.

Results

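Lymphatic endothelial cells of the mouse ovary were followed across genes and over 5 single-cell RNA libraries, made from ovaries of mice aged 2, 3, 4, 5 and 6 wk. A cell was counted as lymphatic endothelial when it held at least 2 UMIs of Ccl21a and at least 1 UMI of 2 or more of Lyve1, Prox1, Mmrn1 and Flt4. It also had to hold no UMI of Ptprc, C1qa or Rgs5, which mark leukocytes, macrophages and pericytes, at least 500 detected genes, and under 15% of its UMIs from mitochondrial genes. A UMI is a molecular tag, so a UMI count numbers the distinct captured RNA molecules of a gene in a cell. Of 48163 deposited cells, 41870 passed the limits on genes and mitochondrial share, and 194 of these were lymphatic endothelial. All mice were C57BL6/J without treatment, so the libraries differ by age alone in the labels. There is 1 library per age, the number of mice behind a library is not given in the sources used here, and no difference between ages can be tested against the spread between mice. The cells were freed with trypsin, strained and sorted for live cells, so the share of a cell type also depends on how well it survives these steps.

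Lymphatic capillaries take up fluid, lipids and leukocytes from the tissue, and collecting vessels with valves return them to the blood. Their endothelium keeps its identity through the transcription factor Prox1 and grows in response to VEGFC, which acts on the receptor VEGFR3, the product of Flt4. It secretes the chemokine CCL21, which draws dendritic cells and T cells that carry CCR7. In the ovary the lymphatic vessels lie mainly in the medulla and around growing follicles and corpora lutea.

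The genes that selected the cells lie on 5 chromosomes of the mouse genome (GRCm38). Prox1 is at chr1:190118035-190170714 on the minus strand, Mmrn1 at chr6:60924976-60989378 on the plus strand, Lyve1 at chr7:110850607-110863239 on the minus strand and Flt4 at chr11:49609263-49652739 on the plus strand. Ccl21a is at chr4:42772860-42773993 on the minus strand and belongs to a cluster of near-identical copies of the CCL21 gene. Another of these, named Gm21541 in the deposited tables and Ccl21d in RefSeq, is at chr4:41903610-41904743 on the plus strand. The sequence just before the start of 3 copies is shown because it is almost the same in all of them while their counts were far apart. The capitals mark the 2 positions, counted from 1 at the 5′ end, at which the windows differ (T141C in Ccl21d, T141C and T143C in Gm13304). The sequences are from RefSeq (GRCm38.p6), at chr4:42773994-42774240 on the minus strand for Ccl21a, chr4:41903363-41903609 on the plus strand for Ccl21d and chr4:42114537-42114783 on the plus strand for Gm13304.
Ccl21a: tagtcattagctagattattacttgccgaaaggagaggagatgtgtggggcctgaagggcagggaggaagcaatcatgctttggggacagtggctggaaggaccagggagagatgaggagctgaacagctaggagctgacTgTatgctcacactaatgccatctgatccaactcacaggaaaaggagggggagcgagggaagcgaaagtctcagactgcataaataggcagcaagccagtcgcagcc
Ccl21d: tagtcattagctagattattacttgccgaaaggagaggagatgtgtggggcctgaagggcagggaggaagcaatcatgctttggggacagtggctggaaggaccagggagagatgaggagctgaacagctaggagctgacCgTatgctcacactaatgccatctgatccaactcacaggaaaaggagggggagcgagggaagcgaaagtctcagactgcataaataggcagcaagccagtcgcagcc
Gm13304: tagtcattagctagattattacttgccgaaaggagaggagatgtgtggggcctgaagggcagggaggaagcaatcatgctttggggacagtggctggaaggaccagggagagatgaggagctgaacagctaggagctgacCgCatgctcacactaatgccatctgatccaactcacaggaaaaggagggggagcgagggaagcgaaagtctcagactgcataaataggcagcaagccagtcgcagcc

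Over the 194 lymphatic endothelial cells the deposited tables gave 28923 UMIs to Ccl21a, 1075 to Gm21541, 14 to Ccl21c, 3 to Gm13304 and 0 to Ccl21b and Gm10591. All 247 bases of each printed window lie upstream of the transcripts and hold no difference other than the marked ones. The transcripts are almost as alike. Of the 780 stretches of 91 bases, the length of the sequenced read, that fit in the 870 bases of the Ccl21a transcript, 424 (54.4%) also occur in Gm21541 and 415 (53.2%) in Gm13304. Within the last 300 bases of the transcript, where reads of a 3′ library mostly fall, 81 of 210 stretches (38.6%) are shared with either copy. How the UMIs divide among the copies is therefore uncertain, and the counts of Ccl21a and Gm21541 are best read together as CCL21.

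The lymphatic endothelial cells were 37 in number at 2 wk, 32 at 3 wk, 46 at 4 wk, 68 at 5 wk and 11 at 6 wk. They formed 0.458% (exact binomial 95% interval 0.323 to 0.631) of the cells at 2 wk, 0.396% (0.271 to 0.559) at 3 wk, 0.484% (0.354 to 0.645) at 4 wk, 0.982% (0.764 to 1.24) at 5 wk and 0.118% (0.0592 to 0.212) at 6 wk. The share was highest in the 5 wk library and lowest in the 6 wk library, and neither interval overlaps that of any other library. Blood endothelial cells, taken for comparison with at least 2 UMIs of Flt1 and at least 1 UMI of 2 or more of Emcn, Cd93, Plvap and Sox17, and without Ptprc, C1qa or Rgs5, numbered 62, 31, 51, 233 and 111. They too had their highest share at 5 wk, at 3.37% (2.95 to 3.82). Of the cells in both gates together, the lymphatic part was 37.4% (27.9 to 47.7), 50.8% (37.9 to 63.6) and 47.4% (37.2 to 57.8) at 2, 3 and 4 wk, then 22.6% (18.0 to 27.7) at 5 wk and 9.02% (4.59 to 15.6) at 6 wk. These intervals cover counting error only.

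**Figure D1:**
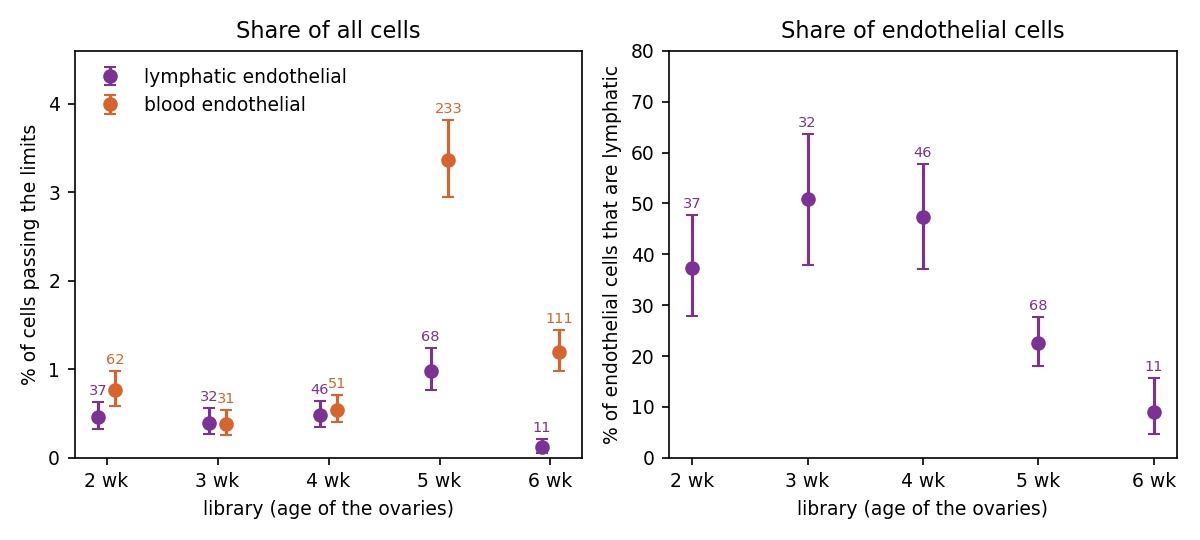
Left, the percentage of cells passing the limits that were lymphatic (purple) or blood endothelial (orange) in each library; right, the lymphatic percentage of the cells in both gates. Points are shares, bars are exact binomial 95% intervals and the numbers above them are counts of cells; the lymphatic share of all cells peaks at 5 wk (0.982%), while its part of the endothelium is highest at 3 wk (50.8%) and lowest at 6 wk (9.02%).

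The median lymphatic endothelial cell held 11219, 6001, 5944, 10054 and 9498 UMIs at 2, 3, 4, 5 and 6 wk. In sum the cells held 461329, 234985, 368897, 950118 and 123676 UMIs. At 6 wk 1 UMI is therefore worth 8.09 CPM, and levels of scarce genes in these 11 cells carry wide intervals. Levels below are in CPM, for which the UMIs of a gene were added over the lymphatic cells of a library, divided by all UMIs that these cells held and multiplied by 1000000. The headers of the tables name Cell Ranger 3.1.0 for 2, 3 and 4 wk and Cell Ranger 6.0.1 for 5 and 6 wk, so the software version and the step from 4 to 5 wk cannot be told apart. Between 18 and 35 cell barcodes were shared by any pair of libraries.

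Ccl21a was the most abundant of the 5 selecting genes in all libraries. It stood at 9884, 13992, 13342, 14596 and 18476 CPM at 2, 3, 4, 5 and 6 wk, and single cells held from 2 to 1317 UMIs with a median of 131. Lyve1, a hyaluronan receptor of initial lymphatics, stood at 1307, 1213, 1171, 1092 and 558 CPM. Ccl21a was thus lowest at 2 wk and highest at 6 wk, and Lyve1 the reverse. Prox1 lay between 553 CPM at 4 wk and 1003 at 5 wk, Mmrn1, a secreted multimerin, between 1098 at 4 wk and 2054 at 6 wk, and Flt4 between 556 at 4 wk and 833 at 6 wk. These values describe the selection and carry no test.

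Most members carried more of the selecting genes than the rule asked for. Of the 194 cells, 146 (75.3%) held all 4 of Lyve1, Prox1, Mmrn1 and Flt4, 42 held 3 of them and 6 held 2. Mmrn1 was found in 190 cells, Flt4 in 189, Prox1 in 186 and Lyve1 in 157. Lyve1 was thus the gene most often missing, and at 6 wk 7 of 11 cells had it. Near the threshold, 6 members held only 2 to 4 UMIs of Ccl21a. Of these, 5 had the pan-endothelial gene Pecam1, but only 1 had Pdpn and 2 had Reln, both lymphatic markers outside the rule. Just outside it lay 5 cells with 1 UMI of Ccl21a and at least 2 of the other genes. Pecam1, Pdpn and Reln were each found in 3 of these 5. A further 4 cells met the gate except for a UMI of Ptprc, C1qa or Rgs5.

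The label was set against markers that the rule did not use. Of the pan-endothelial genes, Egfl7 was found in 190, Pecam1 in 181 and Cdh5 in 168 of 194 cells. Others were scarce, with 26 UMIs of Clec14a, 40 of Cd34, 48 of Erg and 62 of Esam over all members. Podoplanin (Pdpn), the classical surface marker of lymphatic endothelium, was found in 144 cells (74.2%) against 38 of 488 blood endothelial cells (7.79%), and Reln in 171 (88.1%) against 9 (1.84%). The blood endothelial genes Flt1 and Sox17 stood at 3.27 and 3.74 CPM in lymphatic endothelial cells and at 814 and 188 in blood endothelial cells, although Flt1 and Sox17 helped to select the latter. Plvap, a protein of endothelial fenestrae in the blood endothelial gate, was an exception and stood at 271, 306, 314, 260.0 and 396 CPM in lymphatic and at 132, 186, 247, 88.8 and 55.1 CPM in blood endothelial cells. Pdpn and Reln were not restricted to these cells: granulosa cells, gated on Inha, held Pdpn at 72.6 and Reln at 11.4 CPM.

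**Figure D2:**
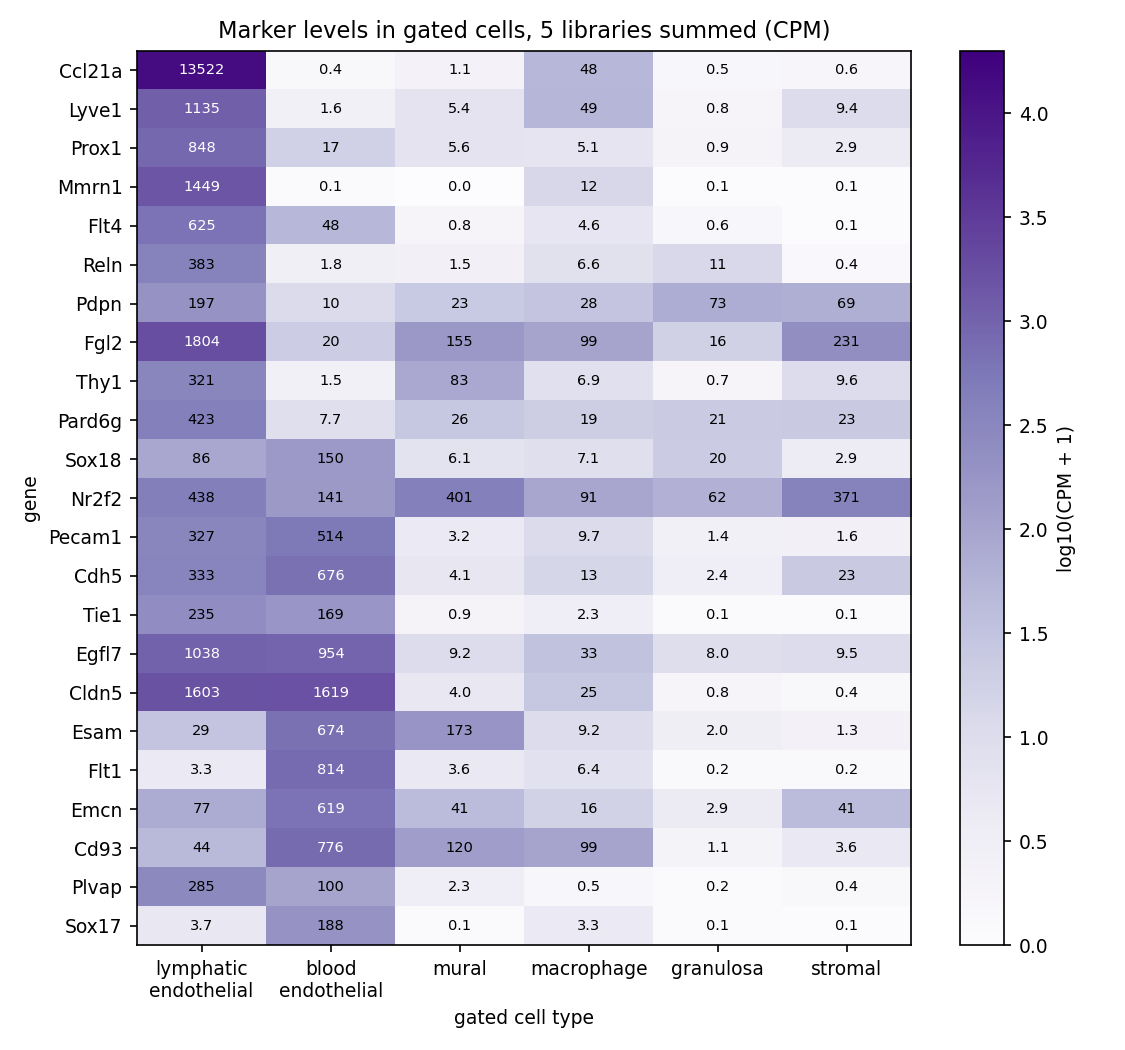
Levels of lymphatic, pan-endothelial and blood endothelial markers (rows) in 6 gated cell types (columns), as CPM over the 5 libraries together. Fields are coloured by log10(CPM + 1) and print the CPM; the first column is high for the 5 selecting genes and for Reln, Fgl2, Thy1 and Pard6g, shares Pecam1, Cdh5, Tie1, Egfl7 and Cldn5 with blood endothelium and is near 0 for Flt1 and Sox17. It is lower than blood endothelium but not near 0 for Emcn and Cd93, and higher for Plvap.

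Markers of other cell types were low in most members but stood out in a few. Pericyte markers (7 genes, of which the rule had set Rgs5 to 0) summed to 17.3, 25.5, 8.13, 23.2 and 8.09 CPM, led by Kcnj8 in the first 4 libraries, and leukocyte markers (7 genes) to at most 14.7 CPM, with Cd53 and Coro1a at 0 throughout. Of 7 macrophage markers, Mrc1 made up nearly all of the 147, 106, 86.7, 154 and 162 CPM, while C1qa (barred by the rule), C1qb, C1qc, Csf1r and Adgre1 were at 0 in all libraries. Granulosa markers (6 genes, led by Inha in 4 of the libraries) summed to 267, 1166, 1271, 608 and 97.0 CPM and stromal markers (5 genes, led by Dcn or Col1a1) to 613, 128, 201, 255 and 615 CPM, with 96.1% of them in 1 cell at 6 wk. Smooth muscle markers (5 genes, led by Acta2) summed to 618, 51.1, 2602, 395 and 24.3 CPM, and 1 cell held 86.9% of them at 4 wk. Theca markers (Cyp17a1, Cyp11a1, Star and Insl3) summed to 8.67, 17.0, 10.8, 986 and 24.3 CPM, and 1 cell held 70.8% of them at 5 wk. Epithelial markers (7 genes) summed to 191, 0, 32.5, 4.21 and 0 CPM, and 1 cell held 96.6% of them at 2 wk.

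Such RNA was concentrated in 12 of the 194 cells, in which granulosa, stromal, smooth muscle, theca and epithelial markers took over 0.5% of the UMIs. The median member had 0.0197% and the highest 3.19%. The 12 cells fell 2, 1, 3, 6 and 0 over the libraries from 2 to 6 wk. The largest 6 wk cell, with 32935 UMIs, held 26.6% of the UMIs of that library's members and 0.222% of its own UMIs in these markers, so it was not among the 12. The largest cell of each other library held at most 9.85%. Scrublet, which marks barcodes that look like 2 cells, called 3, 1, 7, 3 and 0 members doublets, and these were kept. Ratios between ages that rest on the 12 cells are given with and without them below, and the part of this RNA in the other results was not tested gene by gene.

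Lymphatic and blood endothelial cells were compared within the 5 libraries, with edgeR's quasi-likelihood test on the UMIs summed per cell type and library and the library as a block (n = 5 sums per cell type). The genes that selected either cell type were left out of the test, but the CCL21 copy Gm21541 was not. Of 6451 genes tested, 663 (10.3%) were higher and 744 (11.5%) lower in lymphatic endothelial cells at an adjusted p under 0.05 (Benjamini-Hochberg over all genes tested). The median log2 ratio over all of them was -0.01. The 5 pairs of sums are separate libraries, so the p-values measure the spread between libraries of different age, not between mice of 1 age. Genes scarce in 1 of the cell types passed the filter on low counts only through the other, where they were high. They are therefore named with their levels or ratios and without a p. An SE beside such a ratio describes the fit and is no test, and their calls within the gene lists carry no test either.

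The genes with the highest ratios, of which 11 are given here, included secreted proteins, a channel and a transporter, and their levels in lymphatic cells lay above those in blood endothelial cells in each of the 5 libraries. How UMIs were divided between Gm21541 and Ccl21a, which selected the cells, is uncertain, so its values are a description without a test. It stood at 369, 600.0, 609.9, 476 and 703 CPM in lymphatic cells at 2, 3, 4, 5 and 6 wk and at 0 in all blood endothelial cells. Nts, which encodes the peptide neurotensin, stood at 414, 740.5, 537, 482 and 24.3 CPM with 1 UMI in all blood endothelial cells. The 6 wk library was low for Nts, with 3 UMIs in 1 of 11 cells, while the other 4 lay within a 2-fold range.

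Scn3a, a voltage-gated sodium channel, stood at 338, 421, 225, 323 and 267 CPM, with 1 UMI over the blood endothelial cells and a summed ratio of 2522 (conditional exact 95% interval 451 to 99771). Reln, the secreted glycoprotein reelin (chr5:21884454-22344702, minus strand), stood at 366, 328, 363, 418 and 348 CPM in lymphatic cells against at most 3.99 CPM in blood endothelial cells, a log2 ratio of 7.66 ± 0.23 (SE). Reln was the steadiest of the 11 genes over the ages, and its ratio is a description without a test.

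Gdf15, a stress-responsive member of the TGF-beta family, varied more, at 358, 166, 78.6, 493 and 687 CPM against at most 4.43 CPM in blood endothelial cells (7.97 ± 0.28), and at 6 wk its UMIs lay in 2 of the 11 cells. Ptx3, a secreted pentraxin of innate immunity, stood at 459.5, 170.2, 114, 382 and 582 CPM and, like Gdf15, was lowest at 4 wk and highest at 6 wk. Slc45a3, a solute carrier, stood at 134, 200.0, 203, 296 and 323 CPM, lowest at 2 wk and highest at 6 wk. The others among the 11 were Apba2, an adaptor protein, with 176 UMIs in lymphatic and 0 in blood endothelial cells (at least 218-fold), Dtx1, a ubiquitin ligase of the Notch pathway (8.63 ± 0.35), Lrrn4cl (7.87 ± 0.38) and Fndc1 (7.59 ± 0.52).

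Among the 12 genes with the lowest ratios, 8 had no UMI in any of the 194 lymphatic cells. They were Csf2rb, the shared beta chain of the IL-3, IL-5 and GM-CSF receptors, Crispld1, the 12-lipoxygenase Alox12, Samd12, protocadherin 1 (Pcdh1), the angiogenic peptide apelin (Apln), tissue-nonspecific alkaline phosphatase (Alpl) and cyclooxygenase 1 (Ptgs1). Csf2rb stood at 73.4, 86.8, 67.8, 169 and 65.2 CPM in blood endothelial cells and was at least 92.6-fold lower in lymphatic cells, against a floor of 3 counts over the lymphatic group. Apln stood at 31.8, 66.2, 47.9, 34.5 and 72.2 CPM and was at least 31.0-fold lower. The bounds for the other 6 lay between 23.5-fold (Ptgs1) and 75.6-fold (Crispld1).

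The other 4 were found in 1 to 3 lymphatic UMIs each. Von Willebrand factor (Vwf), a clotting protein of blood vessels, stood at 88.0, 116, 179, 112 and 46.9 CPM in blood endothelial cells and had 1 UMI in lymphatic cells, a summed ratio of blood over lymphatic of 216 (38.7 to 8547). Mecom, a transcription factor, and Entpd1, the ectonucleotidase CD39, also had 1 UMI each, with ratios of 283 (50.6 to 11179.6) and 230.4 (41.2 to 9109). The drug efflux pump Abcb1a had 3 UMIs, against 109.7 to 383 CPM in the blood endothelial libraries, with a ratio of 227 (77.7 to 1103).

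**Figure D3:**
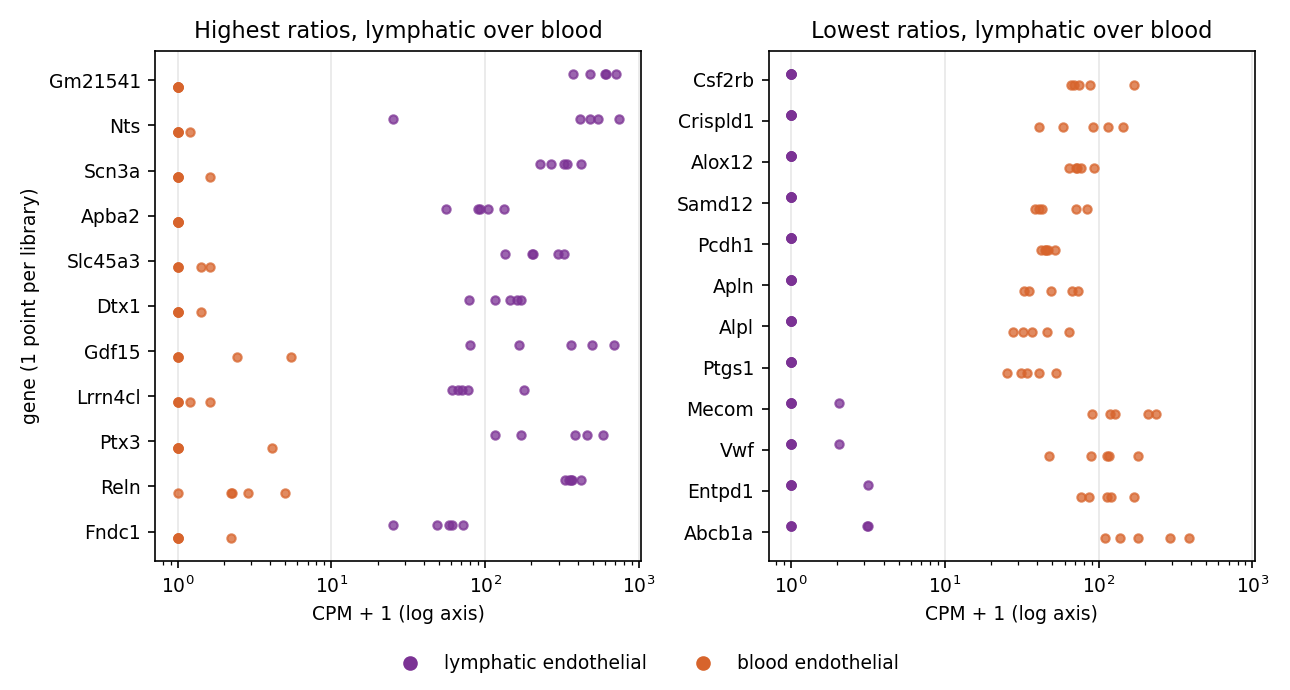
Levels of 11 genes with the highest (left) and the 12 with the lowest ratios (right) of lymphatic over blood endothelial cells, as CPM + 1 on a log axis, with 1 point per library and cell type. The lymphatic (purple) and blood endothelial (orange) points of a gene do not overlap; Nts has 1 low lymphatic point, 6 wk at 24.3 CPM.

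Genes commonly used as lymphatic markers, other than those of the rule, mostly had higher levels in the lymphatic cells. Of 18 in the list 17 were tested, 16 were higher and none was lower, with a median log2 ratio of 3.70. The 16 include Nts, Thy1, Reln and Ptx3, with 1, 12, 14 and 15 UMIs over the blood endothelial cells. These passed the filter through the lymphatic cells, so their calls and their part in the median are a description without a test. Fgl2, a secreted immunoregulatory protein, was the most abundant, at 1289.8, 1455, 1513, 2212 and 2110.4 CPM against 8.23 to 34.2 in blood endothelial cells (6.49 ± 0.29). Thy1, a surface glycoprotein, stood at 299, 421, 309, 334 and 146 CPM against at most 5.98 (7.32 ± 0.32). Pdpn stood at 167, 268, 189.8, 199 and 178 CPM against 6.02 to 37.2 (3.78 ± 0.33), and the polarity protein gene Pard6g at 423, 426, 312, 463 and 437 CPM against at most 13.5 (5.66 ± 0.20). Sned1 had the smallest ratio among those called (1.51 ± 0.26), and its ranges overlapped. The exception was Gimap6, an immunity-associated GTPase, at 267, 345, 352, 353 and 364 CPM in lymphatic and 234, 479.7, 295, 336 and 334 in blood endothelial cells (0.03 ± 0.13, adjusted p = 0.945). Ackr2, a chemokine scavenging receptor of lymphatic vessels, fell under the filter on low counts, with 72 UMIs in lymphatic and 27 in blood endothelial cells.

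Transcription factors of lymphatic development divided. Of 18 tested, 8 were higher and 5 lower in lymphatic cells, with a median log2 ratio of 0.36. Tbx1, a regulator of Flt4, stood at 143, 213, 144, 157 and 154 CPM against at most 3.67 CPM in blood endothelial cells (7.38 ± 0.37). Nr2f2, which encodes the Prox1 partner COUP-TFII of veins and lymphatics, was higher at 243 to 606 CPM against 77.8 to 156 (1.81 ± 0.12). Maf (2.70 ± 0.14), Nfatc1 (2.65 ± 0.21), Foxp2 (2.62 ± 0.24) and the valve factor Foxc2 (2.48 ± 0.35) were higher by similar ratios.

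Factors shared by all endothelium were on the other side. Sox7 (-1.36 ± 0.21), Foxc1 (-1.23 ± 0.28) and the ETS factors Erg (-1.08 ± 0.25) and Fli1 (-0.51 ± 0.17, adjusted p = 0.0489) were lower in lymphatic cells. Fli1 was no longer called with DESeq2, with thinned cells, under the other blood endothelial gate or the stricter limits on cells, without the 12 cells with RNA of other types, without the block, or without the 3, 5 or 6 wk library, Erg without the 5 wk library and Sox7 without the block. For each of these 4 the ranges of the libraries overlapped. Sox18, which switches on Prox1 in the embryo, did not pass the test (-0.50 ± 0.19, adjusted p = 0.0802). It stood at 139, 12.8, 2.71, 93.7 and 226 CPM in lymphatic and at 193, 20.7, 19.9, 122 and 274 CPM in blood endothelial cells, low at 3 and 4 wk in both cell types.

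In the VEGFC and angiopoietin pathway the receptors, the ligands and the co-receptors did not move together. Of 18 genes 11 were tested, 4 were higher and 3 lower, with a median log2 ratio of -0.09. The ligand Vegfc was nearly absent from lymphatic cells, with 3 UMIs, and stood at 163, 86.8, 49.9, 82.6 and 62.1 CPM in blood endothelial cells, a summed ratio of blood over lymphatic of 60.5 (20.6 to 294). The co-receptors were split between the vessel types. Nrp2, which pairs with VEGFR3, stood at 893, 706, 702, 786 and 679 CPM in lymphatic against 114 to 203 CPM in blood endothelial cells (2.42 ± 0.16), and Nrp1 at 8.67, 0, 21.7, 16.8 and 80.9 CPM against 423 to 641 (-4.68 ± 0.35), with all its UMIs at 6 wk in the largest cell. Angpt2, an angiopoietin, was higher at 84.0 to 154 CPM against 8.23 to 28.9 (3.44 ± 0.25). Of the angiopoietin receptors Tie1 was slightly higher (0.45 ± 0.13) and Tek lower (-1.29 ± 0.19), and neither was called with thinned cells. Kdr, the VEGFR2 gene, stood at 481 to 572 CPM in lymphatic and 397 to 661 in blood endothelial cells (-0.05 ± 0.11, adjusted p = 0.836).

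Genes of lymphatic valves and collecting vessels were mostly higher. Of 18 genes 15 were tested, 10 were higher and 2 lower, with a median log2 ratio of 1.31. The lower share is near the 11.5% lower among all genes tested, while 10.3% of those were higher. Besides Foxc2 they included the integrin chain Itga9, which binds the valve matrix, at 137, 123, 67.8, 128 and 105 CPM against 14.7 to 49.6 (2.35 ± 0.26), and Fn1, fibronectin, at 531, 362, 409, 319 and 178 CPM against 19.0 to 143 (2.40 ± 0.16). Adgrg3, an adhesion receptor, was higher at 3.92 ± 0.23, the planar polarity gene Celsr1 at 1.63 ± 0.26 and the stretch-activated channel Piezo1 at 0.84 ± 0.18. The 2 lower genes were Efnb2 (-0.74 ± 0.15) and Plxnd1 (-1.49 ± 0.21). Foxc2 was detected in 57 of the 194 cells (29.4%) and Cldn11, another valve gene, in 19 (9.79%), against 7.99% and 2.66% of blood endothelial cells.

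Genes of leukocyte traffic divided. Of 23 in the list 10 were tested, 3 were higher and 3 lower, with a median log2 ratio of -0.35. Cxcl12, which retains progenitors and leukocytes, was lower at 8.09 to 26.3 CPM against 234 to 641 (-4.20 ± 0.29), as were the adhesion molecule Vcam1 (-3.15 ± 0.46) and Cd200 (-1.44 ± 0.15). Clca3a1, a lymphatic adhesion protein (1.79 ± 0.27), the tetraspanin Cd9 (1.17 ± 0.13) and the sphingosine-1-phosphate exporter Spns2 (0.86 ± 0.22) were higher, and Spns2 was no longer called with DESeq2, without the block or without the 5 wk library. Il7, a survival factor of lymphocytes, fell under the filter, yet stood at 19.5, 63.8, 73.2, 75.8 and 97.0 CPM in lymphatic cells against at most 2.53 in blood endothelial cells, a summed ratio of 55.8 (28.5 to 125). Ccl2, a chemokine for monocytes, also fell under the filter and stood at 56.4, 4.26, 13.6, 75.8 and 0 CPM in lymphatic cells, with 16 UMIs in blood endothelial cells. Ccl19, the other CCR7 ligand, and Madcam1 had no UMI in the lymphatic cells, and Ackr4 had 1.

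Pan-endothelial genes were on average lower in the lymphatic cells. All 20 were tested, 3 were higher and 13 lower, with a median log2 ratio of -0.72. Pecam1 stood at 310.0, 447, 233, 338 and 356 CPM against 435 to 595 (-0.67 ± 0.11) and Cdh5, VE-cadherin, at 362, 285, 206, 368 and 420.5 CPM against 372 to 740.4 (-0.78 ± 0.12). Cd34, a sialomucin, set the types apart, at 2.71 to 48.5 CPM against 579 to 829 (-5.22 ± 0.25). Ecscr (0.76 ± 0.11), Tie1 and the tight junction gene Cldn5 (0.34 ± 0.11) were higher, the last with ranges that overlapped. Cldn5 was no longer called with DESeq2, with thinned cells, without the doublets, under either other lymphatic gate, without the filter or the block, or without the 3, 4 or 6 wk library, and Tie1 with DESeq2, with thinned cells, without the filter or the block, or without the 4 or 5 wk library.

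Of 22 blood endothelial genes 16 were tested, none was higher and 13 were lower, with a median log2 ratio of -2.26 that is the same with Apln at its bound. The 13 include Apln, Vwf, Aplnr and Notch4, with 0 to 2 UMIs each in the lymphatic cells. These passed the filter through the blood endothelial cells, so their calls and their part in the median are a description without a test. Ly6c1 had its 20 lymphatic UMIs in 1 cell and stood at 609 to 889 CPM in blood endothelial cells. Genes of the Notch pathway went different ways. Jag1 (-2.24 ± 0.25), Hey1 (-1.92 ± 0.32) and Dll4 (-1.57 ± 0.24) were lower, and Notch4 was 54.7-fold lower in summed counts (15 to 453, with 2 UMIs). Notch1, in the same list, was not called, and Dtx1, named above, had one of the highest ratios.

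**Figure D4:**
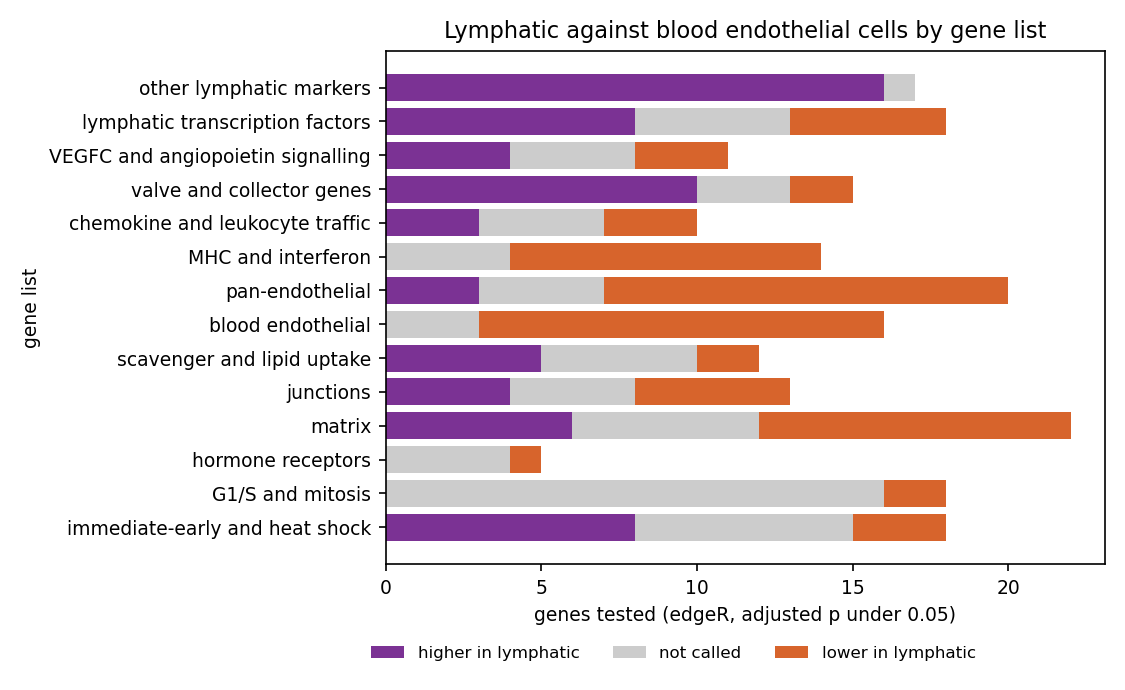
Number of genes of each list that were higher (purple), lower (orange) or not called (grey) in lymphatic against blood endothelial cells (edgeR, adjusted p under 0.05); bar length is the number of genes tested. The other lymphatic markers are higher in 16 of 17 genes, and the blood endothelial and MHC lists hold lower genes only, 13 of 16 and 10 of 14.

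Antigen presentation genes were lower than in blood endothelium. Of 19 MHC and interferon genes 14 were tested, none was higher and 10 were lower, with a median log2 ratio of -0.89. H2-K1 (-0.91 ± 0.12) and H2-D1 (-0.88 ± 0.12), the class I heavy chains, B2m (-0.67 ± 0.12), their light chain, the peptide transporter subunit Tap1 (-1.94 ± 0.28) and the immunoproteasome subunit Psmb8 (-2.09 ± 0.24) were lower in each of the 5 libraries, while their ranges over the ages overlapped. Without the library as a block 6 of the 10 no longer passed the test (H2-K1, H2-D1, B2m, H2-Q4, Psmb9 and Ifitm3).

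Matrix genes divided. Of 23 matrix genes 22 were tested, 6 were higher and 10 lower, with a median log2 ratio of -0.37. Sparc, a matrix glycoprotein, stood at 605, 621, 542, 455 and 655 CPM against 4224 to 5692 (-3.23 ± 0.12, adjusted p = 6.59e-10). At 6 wk the largest lymphatic cell held 43 of the 81 Sparc UMIs, and the level was 419 CPM without it. The collagen IV chains Col4a1 (-1.18 ± 0.11) and Col4a2 (-1.42 ± 0.13) and perlecan, Hspg2 (-2.84 ± 0.19), were also lower, as were Timp1 and Adamts1. Timp2, an inhibitor of matrix proteases, was higher at 539.7, 609, 678, 614 and 590.3 CPM against 164 to 197 (1.73 ± 0.11), as were Fbln5, the laminin chain Lama4, Timp3, Mmp14 and Fn1. Fbln5 was no longer called without the block or without the 3, 4, 5 or 6 wk library, Timp3 without the block, the filter, or the 5 or 6 wk library, and Lama4 with thinned cells.

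Genes for scavenging and lipid uptake divided. Of 16 in the list 12 were tested, 5 were higher and 2 lower, with a median log2 ratio of 0.35. Among all genes tested 10.3% were higher and 11.5% lower. Stab1, a scavenger receptor, stood at 631, 715, 737, 710.4 and 1205 CPM against 59.9 to 110.2 (3.1 ± 0.17). Mrc1, the mannose receptor shared with macrophages, stood at 141, 102, 75.9, 152 and 162 CPM against at most 2.49 (6.43 ± 0.36). It was found in 104 of the 194 cells. The rule had barred C1qa and Ptprc and so selected against macrophages, and the source of the Mrc1 RNA was not tested. Scarb1, the HDL receptor, was lower at 8.51 to 58.9 CPM against 128 to 269 (-2.71 ± 0.21). Fabp5, also lower, was no longer called without the doublets, with the gate that leaves out Ccl21a, without the block, or without the 2 or 4 wk library.

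Of 15 junction genes 13 were tested, 4 were higher and 5 lower (median log2 ratio -0.29), with Nectin2 the highest (1.36 ± 0.14). Of the others higher, F11r was no longer called with DESeq2, without the filter or without the 3 or 5 wk library, and Pard3 without the 3, 4, 5 or 6 wk library. Hormone receptors were mostly too scarce to test. Of 12, 5 were tested and 1, the insulin receptor Insr, was lower (-3.03 ± 0.33). Among 18 immediate-early and heat shock genes, which respond to dissociation as well as to signals in the tissue, 8 were higher and 3 lower (median 0.35), with Jun at 0.89 ± 0.10 and Ier3 at -2.31 ± 0.26. Among all genes tested 10.3% were higher and 11.5% lower. Without the block Fosb, Jund, Atf3, Ier2 and Nr4a1 were no longer called, and Jund was also lost without the filter or without the 3 or 4 wk library. Of 19 cell cycle genes 18 were tested, none was higher and 2 were lower (median -0.27), a share near the 11.5% lower among all genes tested. The 2 were the inhibitors Cdkn1c (-2.15 ± 0.27) and Cdkn1a (-0.84 ± 0.20), the latter not called without the block or the 5 wk library.

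Between ages the lymphatic cells of 2 wk and 5 wk, the 2 libraries with the most UMIs, were set side by side. With 1 library per age there is no test, and ratios carry a conditional exact 95% interval for counting error alone. Of 7574 genes with at least 20 UMIs over both libraries, 490 (6.47%) had a ratio of 5 wk over 2 wk above 2 and 403 (5.32%) a ratio below 0.5, and the median ratio was 0.971. None of the 5 selecting genes was beyond 2-fold in either direction: Ccl21a had a ratio of 1.48 (1.43 to 1.53), Prox1 of 1.39, Mmrn1 of 1.37, Flt4 of 1.16 and Lyve1 of 0.836. Of the 18 other lymphatic markers 2 were above 2 and none below 0.5.

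The genes whose intervals lay farthest from 1 were of 2 kinds, those spread over many cells and those held by 1 cell. Cyp11a1 and Cyp17a1, enzymes of steroid synthesis in theca cells, had 543 and 341 UMIs at 5 wk and 0 at 2 wk, but a single 5 wk cell of 68774 UMIs held 67.8% and 73.5% of all their UMIs. The same cell held 49.7% of Hsd3b1, 61.9% of Fabp3 and 69.7% of Mgarp, the next of the 8 highest. On the 2 wk side a cell of 33825 UMIs held 85.7% of Lgals7, an epithelial galectin, and 67.4% of Aard, and also the largest part of Kctd14, Wt1 and Slc18a2. Without the 12 cells with RNA of other types, 9, 2 and 3 UMIs of Cyp11a1, Cyp17a1 and Fabp3 were left at 5 wk and none at 2 wk. The Hsd3b1 ratio went from 127 (22.5 to 5024) to 2.71 (0.303 to 128), and that of Mgarp from 60.7 (10.7 to 2416) to 0.542 (0.00691 to 42.6). Of Lgals7 and Aard 1 and 3 UMIs were left at 2 wk and none at 5 wk. The other 3 stayed below 0.5 without the 12 cells, on few UMIs. Kctd14 went from a ratio of 0.0262 to 0.136 (0.0140 to 0.679), Wt1 from 0.0347 to 0.0904 (0.00982 to 0.406) and Slc18a2 from 0.0243 to 0.0904 (0.00196 to 0.745).

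The 3 remaining genes of the 8 highest were interferon-response or MHC genes and were spread over many cells. Ifi27l2a, an interferon-induced gene, stood at 13, 8.51, 171, 443 and 445 CPM at 2, 3, 4, 5 and 6 wk. It had UMIs in 2 of 37 cells at 2 wk and 56 of 68 at 5 wk, with a ratio of 34.1 (15.5 to 93.4) that was 30.8 (14 to 84.6) without the 12 cells. In blood endothelial cells its ratio was 3.69 (1.83 to 8.69), and the 2 intervals do not overlap. Iigp1, an interferon-induced GTPase, had no UMI at 2 or 3 wk and stood at 8.13, 123 and 48.5 CPM at 4, 5 and 6 wk, at least 18.9-fold higher at 5 wk than at 2 wk against a floor of 3 counts. H2-Q7, a class I gene, had none at 2 or 3 wk and stood at 5.42, 96.8 and 48.5 CPM, at least 14.9-fold higher. Both had UMIs in 30 of 68 cells at 5 wk and in 2 of 11 at 6 wk.

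Most of the MHC and interferon list was higher at 5 wk. Of 15 genes with enough UMIs 12 had a ratio above 2 and none below 0.5, beside 6.47% of all genes above 2, and the median was 4.25. H2-K1 stood at 124, 89.4, 276, 715 and 784 CPM, a ratio of 5.78 (4.41 to 7.72). B2m stood at 169, 179, 247, 719 and 615 CPM (4.25, 3.36 to 5.45) and Isg15, a ubiquitin-like interferon product, at 17.3, 46.8, 111, 257 and 194 CPM (14.8, 7.40 to 34.7). All 3 were low at 2 and 3 wk, between the extremes at 4 wk and high at 5 and 6 wk. Other cells of the same libraries had like ratios, and the median over the list was 3.19 in blood endothelial cells and 3.38 in all remaining cells of the libraries. Gm42418, a gene that overlaps ribosomal RNA, had the same order of the early and late libraries, at 1239.9, 3328, 1539.7, 9393 and 12525 CPM, with ratios of 7.58 in lymphatic, 6.38 in blood endothelial and 8.89 in the remaining cells. Whether the software version had a part in these ratios was not tested.

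Klf2 and Cp had ratios of 5 wk over 2 wk above 2 in the lymphatic cells and below 1 in blood endothelium. Klf2, a transcription factor induced by flow, stood at 932, 1038, 1084, 2367 and 3647 CPM, a ratio of 2.54 (2.29 to 2.82), with 0.907 (0.849 to 0.971) in blood endothelial cells and 1.32 in the rest. At 6 wk the largest cell held 48.3% of the Klf2 UMIs, and the level was 2568 CPM without it. Klf2 is also one of the 18 immediate-early and heat shock genes. Of these, 4 (Junb, Zfp36, Klf2 and Dnajb1) had a ratio above 2 and none below 0.5, beside 6.47% and 5.32% of all genes. The median ratio of that list was 1.59 in lymphatic, 1.32 in blood endothelial and 1.41 in the remaining cells. Whether dissociation had a part in the Klf2 ratio was not tested. Ceruloplasmin (Cp), a copper-binding ferroxidase, stood at 47.7, 102, 171, 240.0 and 275 CPM, each library above the one before it, though the intervals of all neighbouring ages overlap. Its ratio was 5.03 (3.24 to 8.19), against 0.560 (0.270 to 1.27) in blood endothelial cells and 0.499 in the rest, and 4.72 without the 12 cells. Foxp2 had a ratio of 3.34 (1.97 to 6.04), against 1.19 (0.588 to 2.72) in blood endothelial cells. Il7 had one of 3.88 (1.94 to 8.84) and was too scarce in blood endothelial cells to compare, with 1 UMI at 2 wk and 3 at 5 wk. For Klf2 and Cp the intervals of the 2 cell types do not overlap, but with 1 library per age the difference has no replicate check.

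Lower at 5 wk, and spread over many cells, was Mest, an imprinted gene of growing tissue, at 260.1, 51.1, 24.4, 33.7 and 162 CPM, 7.72-fold lower (5.19 to 11.8), with UMIs in 27 of 37 cells at 2 wk and 22 of 68 at 5 wk. It was high at 2 and 6 wk, where the stromal markers were high too. At 6 wk the cell that held most stromal marker UMIs had 1 of 20 Mest UMIs, and without the 12 cells the ratio of 5 wk over 2 wk went from 0.129 to 0.140. Whether RNA of stromal cells had a part in the Mest levels was not tested. Among matrix genes Col18a1, the endostatin precursor, stood at 425, 374, 314, 201 and 178 CPM (ratio 0.473, 0.386 to 0.580) and the protease Mmp2 at 99.7, 46.8, 24.4, 15.8 and 72.8 CPM (0.158, 0.0821 to 0.289). Without the 12 cells the Mmp2 ratio was 0.0856 (0.0296 to 0.204), and at 6 wk 7 of its 9 UMIs were in the largest cell. AC160336.1, with 24 UMIs in 10 cells at 2 wk and 0 at 5 wk, was at least 16.5-fold lower at 5 wk and had a ratio of 0.0181 in blood endothelial and 0.0687 in the remaining cells. Slc26a7, an anion transporter, had 21 UMIs at 2 wk and 2 at 5 wk.

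**Figure D5:**
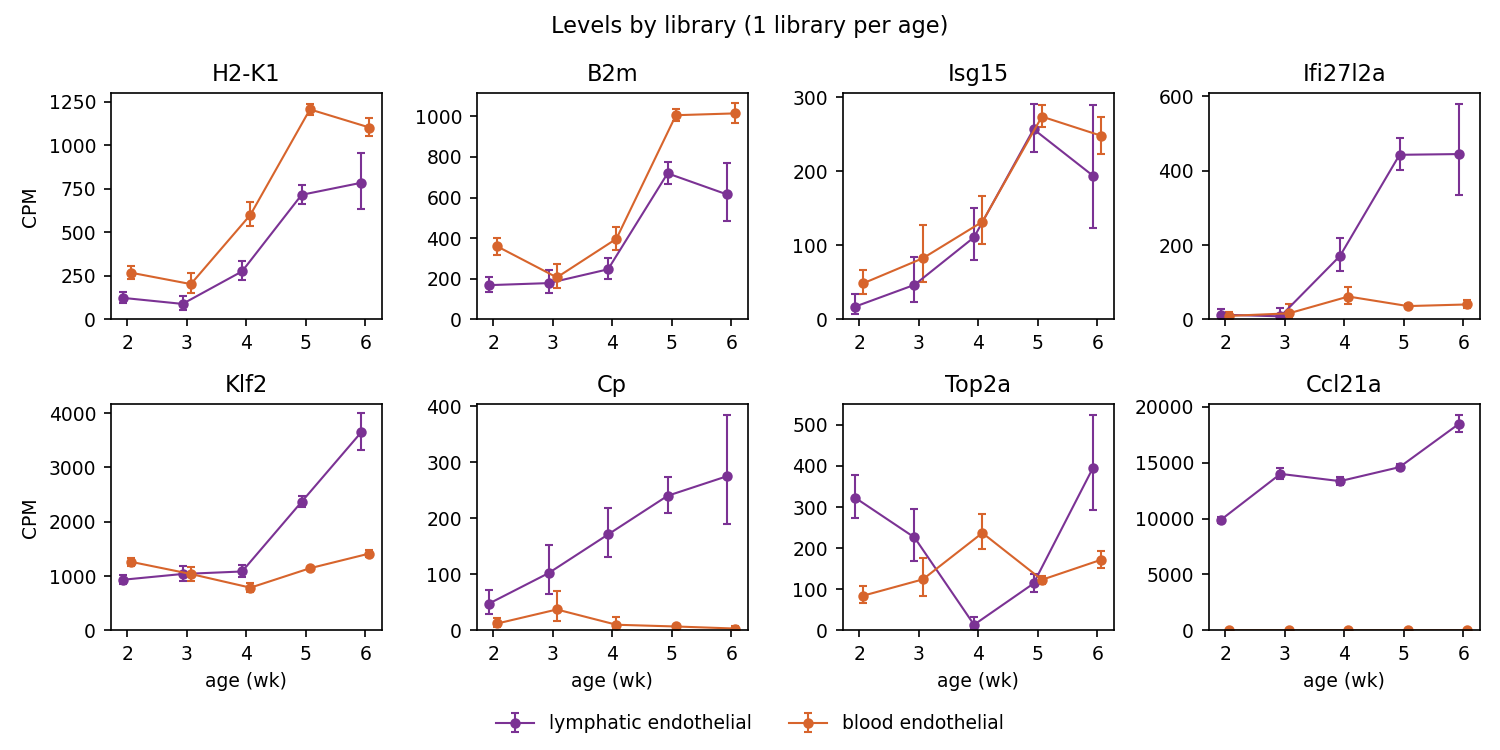
Levels (CPM) of 8 genes against age in lymphatic (purple) and blood endothelial cells (orange), 1 library per age, with exact Poisson 95% intervals as bars. H2-K1, B2m and Isg15 are higher at 5 and 6 wk in both cell types, Ifi27l2a, Klf2 and Cp in lymphatic cells mainly, Top2a is low at 4 wk in lymphatic cells (13.6 CPM) and rests on 1 cell at 6 wk, and Ccl21a is near 0 in blood endothelium.

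Cell cycle genes were found at lower levels at 5 wk than at 2 wk for the most part. Of 19 cell cycle genes 7 had a ratio of 5 wk over 2 wk below 0.5 and none above 2, beside 5.32% of all genes below 0.5, with a median of 0.593 against 1.02 in blood endothelial and 0.884 in the remaining cells. Top2a, a topoisomerase of dividing cells, stood at 323, 226, 13.6, 114 and 396 CPM and Mki67, the proliferation antigen, at 212, 174, 5.42, 54.7 and 178 CPM. From 2 to 5 wk both were lowest at 4 wk. At 6 wk all UMIs of both genes were in the largest cell, and the other 10 cells had none. Cells with UMIs of at least 2 of 7 mitosis genes numbered 12 of 37 (32.4%, 18.0 to 49.8) at 2 wk, 5 of 32 (15.6%) at 3 wk, 2 of 46 (4.35%, 0.531 to 14.8) at 4 wk, 10 of 68 (14.7%, 7.28 to 25.4) at 5 wk and 1 of 11 at 6 wk. With each cell thinned to 2000 UMIs, which left out 7 shallower cells (2, 2, 2, 1 and 0), the numbers were 5 of 35 (14.3%, 4.81 to 30.3), 3 of 30, 0 of 44 (up to 8.04%), 6 of 67 (8.96%, 3.36 to 18.5) and 0 of 11. At equal depth the intervals of 2, 4 and 5 wk overlap.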

How the data were processed

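Ovarian cells of 5 libraries were analysed. The authors made 3′ v3.1 libraries with the 10x Genomics kit, aligned the reads to mm10 (GRCm38) and counted UMIs with Cell Ranger (3.1.0 or 6.0.1, per the file headers), and the submitters' notes also name Seurat 4.1.0. The deposited matrices hold counts of UMIs per gene and cell, not normalized, beside deposited lists of gene names and barcodes (other). Rows with the same gene symbol were summed, as for Ccl21a. The lymphatic cells of a library held between 123676 (6 wk) and 950118 (5 wk) UMIs in total, and all intervals are exact, at 95%, for counting error only.

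Cells were selected on marker UMIs, as given above. UMIs were summed per cell type and library and tested with edgeR 4.0.16 (R 4.3.3, filterByExpr, TMM, quasi-likelihood, library as block), after a check on simulated data. Lymphatic and blood endothelial sums of a library are different cells of the same preparation, which the block pairs. Named genes were the 12 highest and 12 lowest log2 ratios among genes called with at least 50 UMIs and 1 direction in all 5 libraries. For 5 wk over 2 wk they were the 8 genes each way whose interval lay farthest from 1, and other genes are members of 24 gene lists. Ribosomal and mitochondrial genes, Malat1, Neat1 and Xist were left out of these rankings. A few genes that met these rules are not reported here, though the counts include them. Members and lists were chosen with earlier results of these data known. Scrublet was run in scanpy 1.11.5, DESeq2 1.42.0 served as an alternative, and tables and intervals were made in Python 3.11.15 with numpy 2.4.6, scipy 1.17.1 and pandas 2.3.3. Alternatives changed the gates, the limits on cells, doublets, depth, filters, normalization, the test and the block. Leaving out the cells with RNA of other cell types and leaving out the largest cell at 6 wk were added after seeing the data.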

Additional observations from a re-analysis of the deposited data

Results flagged for a closer look

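The rule on cells left out some that carried the same genes. Among the 6293 cells that failed the limits on genes or mitochondrial share, 15 met the gene criteria for lymphatic endothelial cells (6, 2, 5, 1 and 1 at 2, 3, 4, 5 and 6 wk), with a median of 2031 UMIs. Among the cells that passed, 11 had no UMI of Ccl21a but at least 3 of Lyve1, Prox1, Mmrn1 and Flt4. Of these 11, 8 were from the 5 wk library, all had Egfl7, 9 had Pecam1 and 4 had Reln.

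Ube2c, a ubiquitin-conjugating enzyme of mitosis, stood out because it went opposite ways in the 2 endothelial types. Its ratio of 5 wk over 2 wk was 0.326 (0.218 to 0.483) in lymphatic and 3.19 (2.10 to 5.08) in blood endothelial cells. Its level in lymphatic cells was 145, 59.6, 5.42, 47.4 and 40.4 CPM over the 5 ages, and in blood endothelial cells 28.1, 28.9, 129.6, 89.7 and 121. The difference was not tested, since each age has 1 library.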

How the results depend on the processing

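The shares of lymphatic cells stayed within their main intervals under each other gate, limit and doublet setting tried. The number of genes higher and lower than in blood endothelium was 663 and 744 of 6451. It was 197 and 223 (of 1603 genes tested) with cells thinned to 2000 UMIs, 925 and 1303 (of 17395) without the filter on low counts, 516 and 569 with DESeq2 and 524 and 570 without the library as a block. Leaving out 1 library at a time gave 459 to 690 higher and 505 to 747 lower genes, both lowest without the 5 wk library. Some single calls were lost. Of 150 listed genes followed one by one, 24 no longer passed without the block (edgeR adjusted p 0.0561 to 0.854), among them B2m, H2-K1, H2-D1, Cdkn1a, Cldn5, Fbln5, Fli1, Sox7, Spns2, Tie1 and Timp3, and 9 with DESeq2 (adjusted p 0.0633 to 0.187), among them Cldn5, Fli1, Spns2 and Tie1. Without the 5 wk library 13 of 144 did not pass (edgeR adjusted p 0.0505 to 0.422), among them Cdkn1a, Erg, Fbln5, Fli1, Spns2, Tie1 and Timp3. Leaving out another library lost 4 to 9 calls, with Fli1 lost without 3 or 6 wk, Cldn5 and Fbln5 without 3, 4 or 6 wk, Tie1 without 4 wk and Timp3 without 6 wk. The other gates, limits, doublet and filter settings lost 2 to 6 each, and DESeq2's size factors in edgeR lost none. With thinned cells only 84 of the genes could be followed, and 6 of these were lost. Gimap6, which was not called, had a log2 ratio of -0.03 without the filter, -0.01 without the block, and -0.02 to 0.14 with 1 library left out. With a minimum of 50 UMIs, 199 genes were above 2-fold and 92 below 0.5 between 5 and 2 wk, of 4478 in place of 7574. Without the cells that hold RNA of other cell types, an alternative chosen after seeing the data, ratios of 5 wk over 2 wk turned for Inha (2.13 to 0.413), Mgarp, Scarb1 and Star (each to 0.542), and the mean of the shares per cell gave 0.954 for Inha. The cause of the other shifts was not tested. Without the largest cell at 6 wk, also chosen after seeing the data, levels there fell to 0 for Top2a, Mki67 and Nrp1 and were 22.0 CPM for Mmp2. Depth limits scarce genes most at 6 wk, where 11 cells held 123676 UMIs.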
